A study of Mus musculus with 4 samples.

Results

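Hox genes encode homeodomain transcription factors, and they were taken here as every gene whose name on the array was Hox, a cluster letter from a to d and a number. Of the 18454 genes tested on the arrays, 36 were Hox genes, out of 38 with a probe. The 38 members lie in 4 clusters, with 11 genes in Hoxa, 10 in Hoxb, 8 in Hoxc and 9 in Hoxd, and Hoxc11 was not analysed here. They were read by 50 probes, each of about 60 bases: 26 members had 1 probe and 12 had more than 1.

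The cells were cultured spermatogonial stem cells, the stem cells of the male germ line, from day 5 mice of the cross C57/BL6 x DBA/2 F1. Every culture had been kept in serum-free medium based on MEMa that held 5 ng/ml FGF2 together with GDNF at 40 ng/ml. At passage the treated cultures (-F+S) lost FGF2 and received SU5402, an inhibitor of FGF receptors, and their label gives 12 h, while the controls stayed in the normal medium. Each of 4 two-colour arrays held 1 treated sample in green and 1 control sample in red, and the study's design text gives 4 biological replicates of each condition. Dyes were not swapped, so a dye effect particular to a gene and the treatment cannot be told apart. SU5402 and the loss of FGF2 were always applied together. The sources used here do not say if feeder cells were present or if controls were also sampled at 12 h.

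Within a cluster, Hox genes lie on the chromosome in the order in which they act along the head-to-tail axis of the embryo, and genes of the same number in different clusters are paralogues that arose when the clusters were copied. Low numbers act towards the head and high numbers towards the tail, the limbs and the urogenital tract. HOX proteins bind DNA with partners of the PBX, MEIS and PKNOX families, and Polycomb and Trithorax proteins keep the clusters silent or active.

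All Hox genes share the homeobox. Of the probes for paralogue number 13, those of 3 genes fall on the same stretch of the homeobox, and they are shown because the 3 genes had different ratios. Capitals mark the bases that are the same in all 3 when the probes are aligned without gaps.
Hoxa13: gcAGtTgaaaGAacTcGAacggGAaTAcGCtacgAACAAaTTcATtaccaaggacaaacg
Hoxb13: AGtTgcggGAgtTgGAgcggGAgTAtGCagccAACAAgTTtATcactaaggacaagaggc
Hoxd13: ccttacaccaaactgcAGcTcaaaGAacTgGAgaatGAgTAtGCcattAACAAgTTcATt
The Hoxa13 and Hoxb13 probes had the same base at 40 of 58 aligned positions, Hoxa13 and Hoxd13 at 33 of 46, and Hoxb13 and Hoxd13 at 28 of 44. Among these 3 probes, no run of identical bases was longer than 8. The Hoxd13 probe shown is the dimmer of the 2 for that gene.

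Levels below are log2 intensities after normalization, listed in the order of replicates 1 to 4. They are compared between conditions for a probe and never between probes. A gene was called higher or lower in the treated cultures where the log2 ratio of treated over control differed from 0 at an adjusted p under 0.05, with limma and Benjamini-Hochberg adjustment over all genes tested. The standard error (SE) is that of this fit, over 4 arrays unless another number is given. Between any pair of arrays, Pearson's r of the log2 ratios across genes, which are not independent replicates, was 0.907 to 0.948. The SD of a log2 ratio over the arrays had a median of 0.15. All arrays lay on 1 slide and in 1 scan.

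Of the 36 Hox genes tested, 14 were higher and 9 were lower after FGF2 removal with SU5402, and 13 were not called. Over all genes, 37.5% were higher, 30.9% were lower and 68.4% were called in either direction, so the share of Hox genes called was near that of all genes. Levels of treated and control cultures did not overlap for 23 of the 36, beside 61.2% of all genes. The log2 ratio had the same sign on all 4 arrays for 25 of them, beside 73.5% of all genes. The median log2 ratio of the Hox genes was 0.032, and that of all genes 0.023. The fitted change was at least 2-fold upwards for 7 Hox genes, among them Hoxd9, whose controls were at background, beside 11.7% of all genes, and for 1 downwards, beside 1.65% of all genes. The median absolute log2 ratio was 0.59 for the Hox genes and 0.36 for all genes. In bulk RNA, fewer cells of a type and less RNA per cell cannot be told apart.

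The counts of higher and lower genes differed from cluster to cluster. In Hoxd, 6 of 8 genes tested were higher and 0 lower, and the median log2 ratio stood at 1.34. Hoxd9 and Hoxd11 passed the filter through the treated channel, where they were high, and so did Hoxd12, which was not called. Over the Hoxd genes well above background in both channels on all 4 arrays, 4 were higher and the median was 1.70. With no filter on dim probes, which adds Hoxd3, the Hoxd median was 1.01. In Hoxb, 0 of 10 were higher and 5 lower, the median being -0.37. Hoxa had 6 of 11 higher and 2 lower, with a median of 0.49, and Hoxc had 2 of 7 higher and 2 lower, with a median of -0.12. On the 4 arrays the cluster medians were 1.11, 1.505, 1.23 and 1.36 for Hoxd and 0.50, 0.27, 0.52 and 0.51 for Hoxa. They were -0.46, -0.37, -0.36 and -0.63 for Hoxb and -0.014, -0.071, -0.26 and -0.28 for Hoxc. The median of Hoxd was therefore the highest and that of Hoxb the lowest on each array. No test of the difference between clusters was made.

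**Figure D1:**
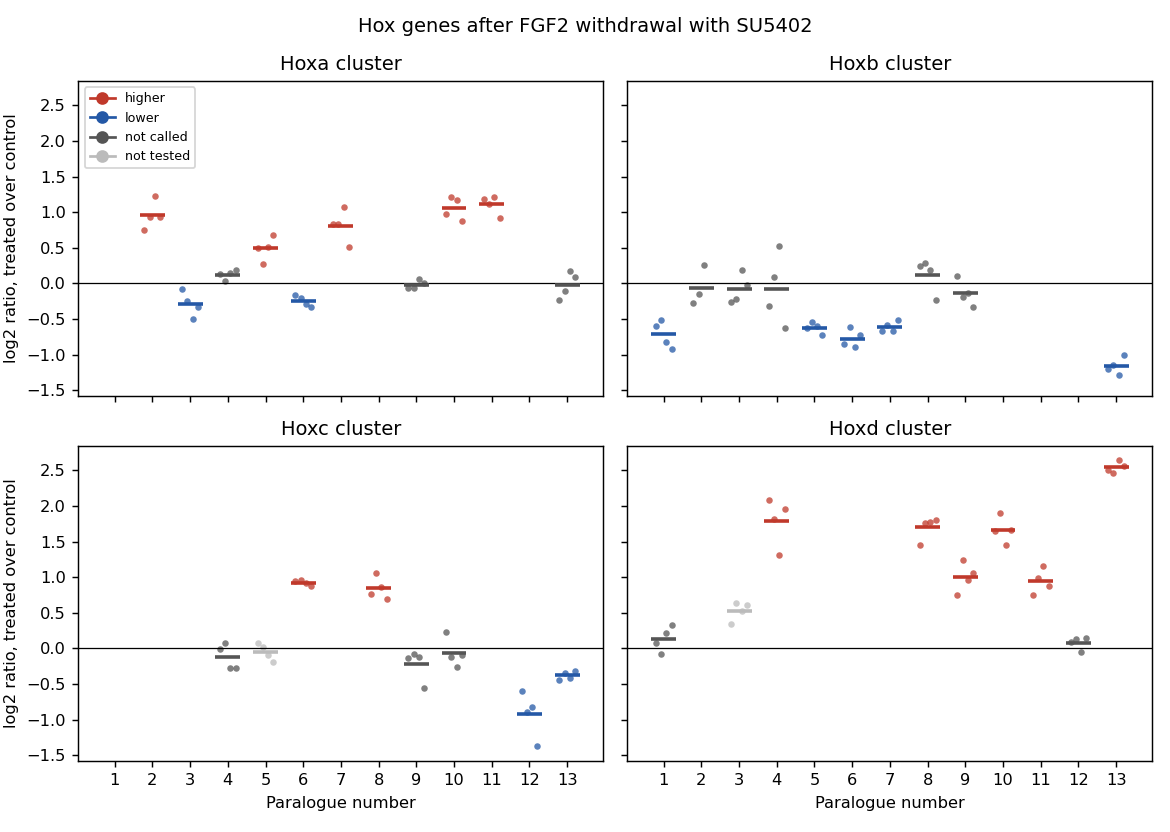
Log2 ratio of treated over control (vertical axis) by paralogue number (horizontal axis) of the Hox genes reported here, in each of the 4 clusters; points are the 4 arrays, and the short bar is their mean, coloured by call. Hoxd genes called higher reach 2.54 at Hoxd13, while every called Hoxb gene lies below 0, down to -1.16 at Hoxb13.

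Hoxd13, which shapes digits and the external genitalia, had the highest ratio of all Hox genes tested. Its brightest probe (mm9, chr2:74509248-74509307, plus strand) was at 12.08, 12.01, 11.91 and 12.00 in the treated cultures and at 9.58, 9.55, 9.27 and 9.44 in the controls. Every treated value lay above every control value, and the ratio was 5.82-fold (log2 2.54, SE 0.068, limma adjusted p = 9.26e-09). Hoxd4, a gene of the hindbrain and neck, was at 9.88, 10.00, 9.41 and 9.84 against 7.80, 8.18, 8.11 and 7.89 (chr2:74566866-74566925), 3.46-fold higher (log2 1.79, SE 0.12, limma adjusted p = 1.12e-06). Hoxd8, which acts in the trunk, was at 10.15, 10.20, 10.05 and 10.23 against 8.69, 8.44, 8.27 and 8.43 (chr2:74545021-74545080), 3.25-fold higher (log2 1.70, SE 0.080, limma adjusted p = 1.32e-07). Hoxd10, a gene of lumbar motor neurons and the limb, was at 10.33, 10.47, 10.18 and 10.44 against 8.68, 8.57, 8.73 and 8.77 (chr2:74532280-74532339), 3.18-fold higher (log2 1.67, SE 0.084, limma adjusted p = 2.05e-07). In all 3 the treated and control levels were apart on every array, and the smallest single ratio was 1.31, for Hoxd4 on replicate 3.

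Hoxd9 and Hoxd11, which also pattern the limb, were dim in the controls. Hoxd9 was at 7.89, 7.97, 7.996 and 7.92 in the treated cultures, well above background on 4 of 4 arrays, and at 7.13, 6.73, 7.03 and 6.86 in the controls, not well above background on any. For a bound, each control array took the higher of the Hoxd9 level and the lowest signal well above background, with a mean of 6.95. On replicates 1 to 3 this was the Hoxd9 level itself. Against it, Hoxd9 was at least 1.99-fold higher. The fit of its plain log2 ratio (1.01, limma adjusted p = 7.43e-06) rests on control values at background and did not test the bound. Hoxd11 was at 7.92, 7.998, 8.03 and 8.17 against 7.17, 7.01, 6.87 and 7.29, with 1 control array well above background, and the ratio was 1.92-fold (log2 0.94, SE 0.082, limma adjusted p = 7.68e-06). Both were higher on every array, but their size rests on control values near the background: the scanner's own log ratios gave a log2 value of 2.15 for Hoxd9 and 1.83 for Hoxd11. Hoxd1 (log2 0.13) and Hoxd12 (log2 0.080, well above background on 3 treated arrays and 1 control array) were not called. Hoxd3, which patterns the upper neck vertebrae, was well above background on 1 treated array and on 0 control arrays, and was not tested.

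**Figure D2:**
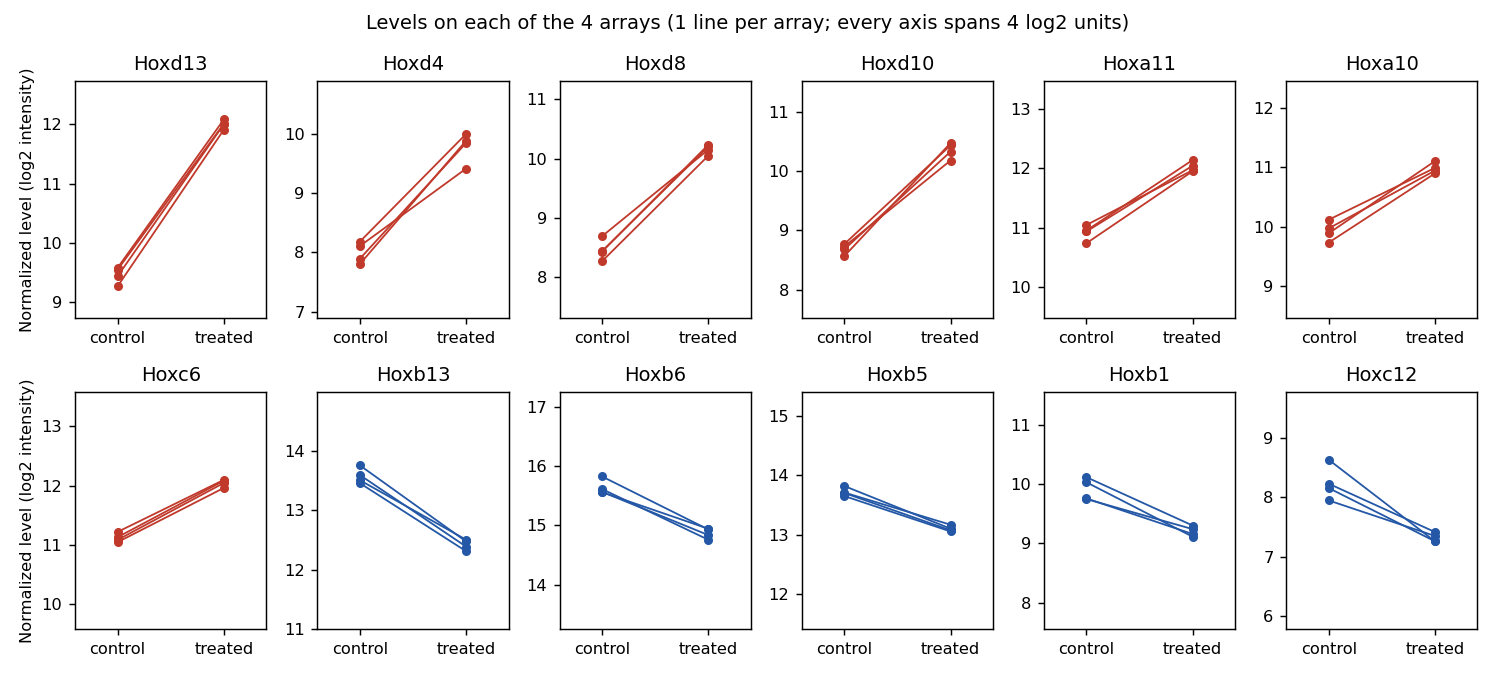
Normalized log2 level (vertical axis) of 12 Hox genes in control and treated cultures, with 1 line per array (red, called higher; blue, called lower). Each axis covers 4 log2 units, so slopes may be compared between panels and heights may not. Lines rise on all 4 arrays for the Hoxd genes shown and fall on all 4 for Hoxb13 and Hoxb6.

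In Hoxb the called genes were all lower. Hoxb13, a gene of the tail end and the prostate, was at 12.39, 12.31, 12.47 and 12.50 in the treated cultures and at 13.59, 13.46, 13.76 and 13.51 in the controls (chr11:96057368-96057427, plus strand). This was the only Hox gene lower by at least 2-fold, at 2.24-fold (log2 -1.16, SE 0.073, limma adjusted p = 8.4e-07). Hoxb6, which acts in the thorax, was at 14.76, 14.94, 14.93 and 14.84 against 15.61, 15.56, 15.82 and 15.56 (chr11:96162563-96162622), 1.71-fold lower (log2 -0.77, SE 0.074, limma adjusted p = 1.48e-05). Hoxb1, a hindbrain gene, was at 9.16, 9.24, 9.30 and 9.11 against 9.76, 9.75, 10.11 and 10.03 (chr11:96228450-96228510), 1.64-fold lower (log2 -0.71, SE 0.085, limma adjusted p = 6.27e-05). Hoxb5, which acts in the lung and the shoulder girdle, was at 13.07, 13.17, 13.05 and 13.10 against 13.70, 13.71, 13.65 and 13.82 (chr11:96167130-96167189), 1.54-fold lower (log2 -0.62, SE 0.068, limma adjusted p = 3.5e-05). Hoxb7, the neighbour of Hoxb6, was 1.52-fold lower (log2 -0.61, limma adjusted p = 4.2e-05). All 5 had every treated level below every control level.

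The other Hoxb genes were not called. The array ratios of Hoxb4, known from blood stem cells, ran from -0.63 to 0.53, with an SD of 0.50, the widest spread described here. Hoxb8 had ratios of 0.24, 0.29, 0.19 and -0.23, and without replicate 4 it was called higher (log2 0.24, limma adjusted p = 0.0213). Hoxb9 (log2 -0.14) lay near 0, and so did the brightest probes of Hoxb2 (log2 -0.057, fitted on 3 arrays because its spot on replicate 4 was marked as an outlier) and Hoxb3 (log2 -0.080).

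In Hoxa the higher genes were spread along the cluster. Hoxa11, which acts in the kidney, the forearm and the uterus, was at 12.14, 12.04, 11.95 and 11.97 in the treated cultures and at 10.95, 10.93, 10.74 and 11.04 in the controls (chr6:52192107-52192166, minus strand), 2.16-fold higher (log2 1.11, SE 0.075, limma adjusted p = 1.35e-06). Hoxa10, another gene of the reproductive tract, was at 10.94, 11.10, 10.90 and 10.99 against 9.97, 9.89, 9.73 and 10.12 (chr6:52181656-52181715), 2.08-fold higher (log2 1.06, SE 0.080, limma adjusted p = 2.88e-06). Hoxa2, which sets the identity of the second pharyngeal arch, was at 8.33, 8.46, 8.48 and 8.53 against 7.58, 7.53, 7.25 and 7.60, 1.94-fold higher (log2 0.96, SE 0.087, limma adjusted p = 1.01e-05). Hoxa7, a trunk gene, was at 11.83, 11.62, 11.63 and 11.60 against 11.001, 10.79, 10.55 and 11.09, 1.75-fold higher (log2 0.81, SE 0.094, limma adjusted p = 5.09e-05). Hoxa5, which acts in the lung, was also higher (1.41-fold, log2 0.49). None of these had overlapping levels.

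Hoxa3 and Hoxa6 went the other way by a small amount. Hoxa3, needed for the thymus and parathyroid, was at 8.97, 8.81, 8.80 and 8.80 against 9.06, 9.06, 9.30 and 9.12, 1.22-fold lower (log2 -0.29, SE 0.082, limma adjusted p = 0.0107). Hoxa6 was at 7.68, 7.79, 7.75 and 7.85 against 7.85, 8.01, 8.04 and 8.18, 1.19-fold lower (log2 -0.25, SE 0.068, limma adjusted p = 0.00914). Levels of Hoxa6 overlapped between the conditions. Both calls were lost when arrays were centred on their median without loess (limma adjusted p = 0.227 for Hoxa3 and 0.204 for Hoxa6) and with the trend on probe GC content removed (0.221 and 0.401), at log2 ratios of -0.23 and -0.22 in the first and -0.10 and -0.061 in the second. The scanner's log ratios gave -0.59 and -0.54. Over all alternatives the adjusted p ran from 0.000733 to 0.227 for Hoxa3 and from 0.000846 to 0.401 for Hoxa6. Hoxa4 (log2 0.12), Hoxa9 (log2 -0.015), which acts in blood progenitors, and Hoxa13 (log2 -0.016) were not called.

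In Hoxc, among numbers 1 to 8, 2 of 3 genes tested were higher and 0 lower. Among numbers 9 to 13, 0 of 4 were higher and 2 lower, a difference that was not tested and rests on few genes. Over all genes, 37.5% were higher and 30.9% lower. The other clusters showed no such reversal along the same split. Hoxa had 4 of 7 higher and 2 lower, then 2 of 4 higher and 0 lower. Hoxb had 0 of 8 higher and 4 lower, then 0 of 2 higher and 1 lower. Hoxd had 2 of 3 higher and 0 lower, then 4 of 5 higher and 0 lower, with Hoxd9 and Hoxd11 among the higher. Hoxc6, which acts in the thorax and the forelimb, was at 12.08, 12.05, 11.96 and 12.10 against 11.13, 11.09, 11.05 and 11.22 (chr15:102842032-102842093, plus strand), 1.90-fold higher (log2 0.93, SE 0.065, limma adjusted p = 1.85e-06). Hoxc8, a gene of the thorax and of motor neurons, was at 8.27, 8.23, 8.17 and 7.99 against 7.50, 7.17, 7.31 and 7.29, 1.80-fold higher (log2 0.85, SE 0.079, limma adjusted p = 1.21e-05). Hoxc12 was at 7.35, 7.26, 7.41 and 7.26 against 7.95, 8.15, 8.23 and 8.63 (chr15:102768819-102768878), 1.89-fold lower (log2 -0.92, SE 0.11, limma adjusted p = 8.32e-05). Hoxc13, which acts in hair follicles and nails, was at 7.25, 7.41, 7.25 and 7.23 against 7.70, 7.75, 7.67 and 7.55, 1.30-fold lower (log2 -0.38, SE 0.067, limma adjusted p = 0.000782), with 3 treated arrays well above background. None of these 4 had overlapping levels. Hoxc4 (log2 -0.12), Hoxc9 (log2 -0.22) and Hoxc10 (log2 -0.060) were not called, and Hoxc5, well above background on 1 treated array and 1 control array, was not tested.

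Read by number, some groups of paralogues held called genes of both directions and others of 1 direction. Over all genes, 37.5% were higher and 30.9% lower. Of the 4 genes numbered 13, Hoxd13 was higher, Hoxb13 and Hoxc13 were lower and Hoxa13 was not called, with ratios of -0.23, -0.10, 0.17 and 0.10 on its arrays. Of the numbers 6, Hoxc6 was higher and Hoxa6 and Hoxb6 were lower, and the Hoxa6 call was lost under the alternatives given above. Hoxa7 was higher and Hoxb7 lower, and Hoxa5 was higher and Hoxb5 lower. Of the numbers 11, Hoxa11 and Hoxd11 were both higher, Hoxd11 with dim controls. Of the numbers 10, Hoxa10 and Hoxd10 were higher and Hoxc10 was not called. Of the numbers 8, Hoxc8 and Hoxd8 were higher and Hoxb8 was not called. The numbers 2, 3, 4, 9 and 12 had called genes of 1 direction only. Along the clusters, 2 of 7 genes numbered 1 to 3 were higher and 2 lower. Of those numbered 4 to 8, 6 of 14 were higher and 4 lower. Of those numbered 9 to 13, 6 of 15 were higher and 3 lower. These 6 include Hoxd9 and Hoxd11, which passed the filter only through the treated channel, where they were high. Called genes of both directions were thus present in each stretch.

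For 9 members a further probe passed the filter. The dimmer Hoxd13 probe (chr2:74508005-74508064), printed above, had ratios of 1.49, 1.82, 1.94 and 1.53 (mean 1.70, SE 0.092), in the direction of the brightest probe and smaller. Hoxb6 gave -0.82 with its dimmer probe, in the direction of the first. The dimmer Hoxd9 probe was well above background on 4 treated arrays and 0 control arrays, so no size is given for it. The printed Hoxa13 probe is its brightest, and the other gave -0.078, so the 3 homeobox probes for number 13 read about 0, -1.16 and 1.70 on the log2 scale in the same hybridizations. The probes of Hoxb3 differed: the dimmer one had ratios of -0.96, -0.85, -0.998 and -1.05 (mean -0.96, SE 0.072), while the brighter one (chr11:96209002-96209061) had -0.26, -0.22, 0.19 and -0.02. The dimmer one shares a longer run of bases with a probe of another Hox gene than any other pair of Hox probes did, and its part in that value was not tested. Hoxb3 was called lower with that probe (limma adjusted p = 3.45e-06), with the mean of both (log2 -0.52), with the GC trend removed (log2 -0.29) and with the scanner's log ratios (log2 -0.27). The further Hoxb2 probe (log2 -0.35) lies on the strand opposite to the cluster at chr11:96211860-96211919. Exons and UTRs of these mm9 positions were not analysed here.

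**Figure D3:**
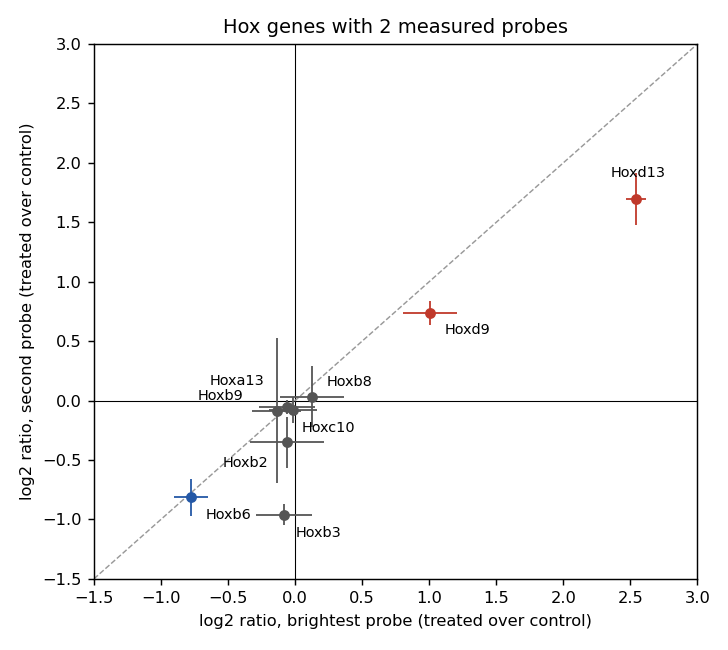
Mean log2 ratio of the dimmer probe (vertical axis) against that of the brightest probe (horizontal axis) for the 9 Hox genes with 2 kept probes; the line marks equal values. Hoxd13 and Hoxb6 lie on the same side of 0 with both probes, both Hoxd9 probes have controls at background, and Hoxb3 reads -0.080 with the brightest and -0.96 with the other.

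The stretch of 250 bases before the transcription start, from RefSeq on GRCm38.p6, could be matched for 22 Hox genes in 24 windows. They held a median of 12.5 CpG dinucleotides, from 2 to 35, beside 6 over all 32851 windows, and a median GC content of 58.6% beside 52.4%. Of the motifs searched on both strands, TATAAA (the TATA box) stood in the windows of Hoxa10, Hoxb8, Hoxd13 and Hoxd4, and in 12.4% of all windows. TTTATG, a site of CDX factors, stood in Hoxa7, Hoxb8, Hoxd11, Hoxd3 and Hoxd4, and in 10.8% of all. TGATTNAT, a joint HOX and PBX site, stood in Hoxa2 and Hoxd11, and in 2.82% of all.

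The windows of Hoxd13 (chr2:74667975-74668224, plus strand) and Hoxd4 (chr2:74721728-74721977, plus strand) are printed because these genes had the highest ratios and lie in the same cluster. Capitals mark TATAAA and TTTATG on either strand, and TATAAA overlaps its own reverse complement in Hoxd13.
Hoxd13: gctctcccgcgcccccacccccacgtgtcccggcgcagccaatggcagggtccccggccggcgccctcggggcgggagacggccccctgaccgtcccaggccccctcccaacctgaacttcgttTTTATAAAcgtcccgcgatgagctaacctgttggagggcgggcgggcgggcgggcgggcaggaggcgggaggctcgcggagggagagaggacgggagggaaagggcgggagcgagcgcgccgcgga
Hoxd4: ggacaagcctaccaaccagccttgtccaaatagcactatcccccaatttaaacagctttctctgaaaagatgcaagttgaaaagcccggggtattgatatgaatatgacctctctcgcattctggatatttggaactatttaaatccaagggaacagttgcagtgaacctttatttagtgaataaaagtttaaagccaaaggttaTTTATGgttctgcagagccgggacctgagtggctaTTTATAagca
The Hoxd13 window holds 31 CpG and 74.4% GC, and the Hoxd4 window 3 CpG and 40.4% GC. The 2 most raised Hox genes thus lie behind windows of unlike base composition, and a match of letters is a description and not a site.

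Among the proteins that bind DNA together with HOX proteins, the TALE cofactors, 7 of 9 genes were higher and 2 lower (median log2 0.80). Beside this list and those below, 37.5% of all genes were higher and 30.9% lower. Meis1 (log2 1.37, limma adjusted p = 7.79e-07) and Meis2 (log2 1.28, limma adjusted p = 5.76e-07), whose products pair with HOX and PBX, were higher. Pknox2 was higher with its brightest probe (log2 2.29, limma adjusted p = 7.32e-08) and read -0.077 with the next. Of a list of regulators of Hox genes, mostly retinoid genes, 6 of 12 tested were higher and 3 lower. The higher ones include Gdf11 (log2 0.75) and Tgfbr1 (log2 0.68), which are neither CDX nor retinoid genes. Cdx2, the only CDX gene tested, was not called (log2 -0.018). Aldh1a2, which makes retinoic acid (log2 1.24, limma adjusted p = 6.91e-07), and Rarb, a retinoic acid receptor (log2 0.87, limma adjusted p = 5.94e-06), were higher. Cyp26a1, which degrades retinoic acid, was lower (log2 -1.05, limma adjusted p = 1.22e-06). Cyp26b1, another enzyme that degrades it, was higher (log2 0.53, limma adjusted p = 0.00105). The retinoid genes named thus moved in both directions, as did the list as a whole.

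Of the Polycomb genes, 6 of 19 were higher and 8 lower (median 0.078), beside 37.5% higher and 30.9% lower of all genes. Cbx6 was higher (log2 1.57, limma adjusted p = 5.27e-07). Cbx2, whose loss alters Hox boundaries in the skeleton, was lower with its brightest probe (log2 -0.66, limma adjusted p = 3.63e-05). The next Cbx2 probe read -0.21 and was not called (limma adjusted p = 0.0687). Phc3 was higher with its brightest probe (log2 1.21, limma adjusted p = 1.56e-05) and read -0.024 with the next. Of the Trithorax genes and H3K27 demethylases, 3 of 13 were higher and 6 lower (median -0.16). Only 1 was higher with median centring, with the scanner's log ratios, without replicate 1 and without replicate 2, and 0 with the processed signals. Kmt2b, a histone H3K4 methyltransferase (log2 -0.76, limma adjusted p = 1.47e-05), and Wdr5 (log2 -0.69, limma adjusted p = 5.55e-05) and Rbbp5 (log2 -0.64, limma adjusted p = 8.72e-05), subunits of such enzymes, were lower. Neither list moved one way as a whole.

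Genes beside the clusters gave a further comparison of place. Of 11 tested, 2 were higher and 5 lower (median 0.017). The 2 higher calls were lost with median centring and with both sets of scanner values, and 1 was left when any single array was left out. Evx1, the homeobox gene beyond Hoxa13, was lower (log2 -0.99, limma adjusted p = 1.6e-06), although most called Hoxa genes were higher. Beyond the Hoxb genes, Ttll6 (log2 -0.56, limma adjusted p = 0.000148) and Snx11 (log2 -0.65, limma adjusted p = 0.000169) were lower, and the next probe of Snx11 read 0.043. Of the other homeobox genes of the ANTP class, which share the homeodomain type but lie outside the clusters, 5 of 41 tested were higher and 23 lower (median -0.34), against 15 lower with median centring and 3 higher with either set of scanner values. Meox2, a gene of somites and vessels, was higher (log2 2.13, limma adjusted p = 2.25e-08), and Dlx4 was lower (log2 -1.05, limma adjusted p = 1.16e-06). Evx1 and Evx2 count both among the ANTP-class genes and among the genes beside the clusters. Cdx2 counts both among the ANTP-class genes and among the regulators above. Whether these lists differ from the Hox genes was not tested.

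**Figure D4:**
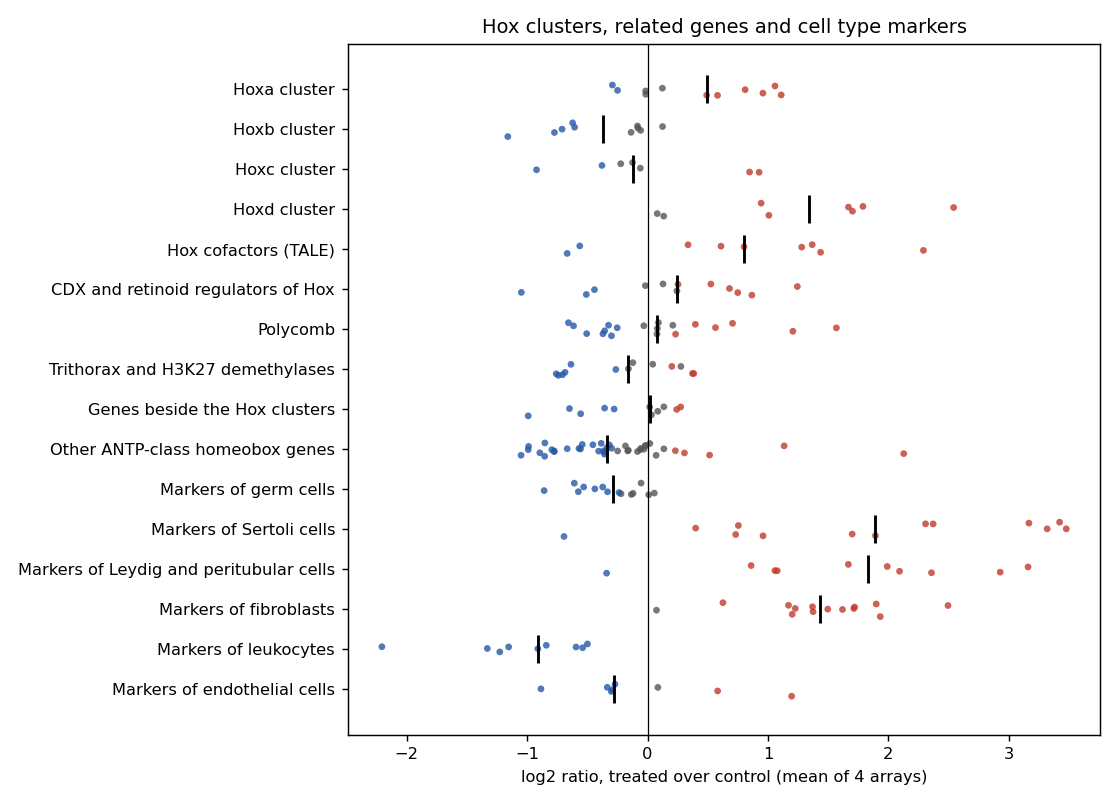
Log2 ratio of treated over control (horizontal axis) of every tested gene in the 4 Hox clusters, the lists of partners, regulators, neighbours and other homeobox genes, and the cell type marker lists; bars mark medians, and red, blue and grey points are genes called higher, lower and not called. The medians run from -0.37 for Hoxb to 1.34 for Hoxd among the clusters, and from -0.91 for leukocyte markers to 1.89 for Sertoli markers.

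Markers of other cells of the testis moved with the treatment beside these results, where 37.5% of all genes were higher and 30.9% lower. All 14 germ cell markers tested were well above background in both conditions, and 0 were higher and 8 lower (median log2 -0.28). Their summed linear level ran from 210515 to 216309 in treated cultures and from 269293 to 304431 in controls. Sertoli cell markers were higher for 12 of 13 and lower for 1, and their sum ran from 514304 to 546098 against 129564 to 142608. Leydig and peritubular markers were higher for 9 of 10 and lower for 1, with sums of 238385 to 281209 against 61567 to 69167. Fibroblast markers were higher for 13 of 14 and lower for 0, with sums of 1684600 to 1799880 against 652817 to 730702. Leukocyte markers were lower for 9 of 9, with sums of 52234 to 65276 against 124688 to 148681, and endothelial markers were higher for 2 of 8 and lower for 5, with sums of 11227 to 14401 against 13582 to 15982. Lower endothelial markers numbered 1 with median centring and 3 with the GC trend removed. The summed levels did not overlap for the germ, Sertoli, Leydig and peritubular, fibroblast and leukocyte lists, and their part in the Hox results was not tested.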

How the data were processed

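The authors deposited spot intensities, not normalized between arrays, that the submitters' processing notes credit to Agilent Feature Extraction, version 10.5.1.1. The deposited LogRatio is a log10 ratio of red over green, per the file headers. The series matrix deposited by the authors held log2 values that equalled log2 of green over red processed signal, within 0.001, for 99.8% of values. This is treated over control, with no centring (column medians -0.26, 0.011, 0.11 and -0.058).

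Background was corrected by normexp (offset 50), and ratios were normalized by loess within each array, with control spots at weight 0. Outlier spots (141 to 171 per array) were dropped, and 0 were saturated. A probe was kept (27730 of 41174) if at least 3 of the 4 arrays had it well above background in 1 and the same channel, and the brightest kept probe stood for a gene. Names were updated through a RefSeq table of GRCm38.p6 (25097 probes by accession, 7973 by symbol or synonym, and 8104 kept the name of the file). Probe positions (mm9) come from the scanner files. For each gene, limma 3.58.1 (R 4.3.3; lmFit, then eBayes) tested the log2 ratio against 0, two-sided, with Benjamini-Hochberg adjustment over 18454 genes. A ratio is relative to the trend of its array. Levels are log2 values after loess and Aquantile scaling. For Hoxd9, the bound sets the treated mean against the higher of its own control level and the lowest signal well above background on each array. The number of arrays limits the precision.

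The Hox genes and the other gene lists were chosen with earlier results of these data known. Values on every array are given for up to 4 called genes per cluster, by size, for called genes against the direction of their cluster, and for genes above background in 1 condition. Of each list up to 3 called genes are named, by adjusted p, and Cyp26b1 is added beside Cyp26a1. Gdf11, Tgfbr1, Cdx2 and Evx2 are named to show what the lists hold. The fit was tested on simulated ratios with independent noise and no dye effect, so that test cannot show a dye effect in these data. Alternatives covered the normalization, the scanner's own ratios, the filter, the choice of probe, GC content, single-channel values and each array left out. Some members and probes are not reported here.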

Additional observations from a re-analysis of the deposited data

Results flagged for a closer look

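Over 52 sets of 4 values, 2 had a replicate that stood apart by Dixon's criterion, which sets its gap to the nearest other value against the whole range, and chance gives about 1 in 20 such sets. The log2 ratio of Hoxc9 was -0.56 on replicate 4 and between -0.14 and -0.071 on the others (gap 0.864 of the range). The log2 ratio of Hoxd8 was 1.46 on replicate 1 and between 1.77 and 1.80 on the others (gap 0.894 of the range), and it was called higher without replicate 1 too.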

How the results depend on the processing

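Of the 23 Hox genes called, 21 kept their direction and call in each of the 13 alternatives that gave them a value; the exceptions were Hoxa3 and Hoxa6, so that Hoxa had 0 lower genes with median centring in place of loess and with the GC trend removed. The scanner's log ratios, which put the median of all genes at -0.12 in place of 0.023, a shift of -0.15, gave 14 Hox genes higher and 15 lower, with 5 lower in Hoxc and a Hox median of -0.13. The processed signals centred on the median gave a Hox median of -0.083. The mean of all kept probes gave 12 Hox genes lower, 7 of them in Hoxb, and a Hoxb median of -0.56. Hoxb2 is among these, in part by a probe on the strand opposite to the cluster. Median centring put the Hoxb median at -0.51 and the scanner's log ratios at -0.53. Probes above background in both channels on all 4 arrays gave 12 Hox genes higher and 8 lower, with 4 higher in Hoxd and 1 lower in Hoxc, a Hox median of -0.016 and a Hoxd median of 1.70. The next brightest probe, which 9 Hox genes have, gave 2 higher and 3 lower Hox genes, 1 changed at least 2-fold and a median of -0.078. There Hoxa had 0 higher and 0 lower, Hoxb 3 lower (among them Hoxb2, by a probe on the strand opposite to the cluster), Hoxc 0 higher and 0 lower, and Hoxd 2 higher, and Pknox2 (-0.077), Phc3 (-0.024) and Snx11 (0.043) reversed. Leaving out each array gave 14 to 15 Hox genes higher, 9 lower, 0 to 1 higher in Hoxb (Hoxb8, without replicate 4), medians of 0.037 to 0.066, and 7 to 11 changed at least 2-fold, against 8 with all arrays and 11 without replicate 1. Values fitted per channel with no replicate block, against the pairing within arrays, gave 14 higher and 9 lower. Dim probes are limited by signal over background: with the processed signals, the log2 ratios were 2.20 for Hoxd9, 1.88 for Hoxd11, 1.47 for Hoxa2, 1.45 for Hoxc8, -1.58 for Hoxc12, -0.81 for Hoxc13, -0.54 for Hoxa3 and -0.49 for Hoxa6, each over 1.5 times the reported value. Among the other lists, the Leydig and peritubular markers had 0 lower with median centring, with the GC trend removed and per channel, the endothelial markers had 1 higher with the scanner's log ratios, and the neighbours of the clusters had 1 higher with the mean of probes and per channel. With the next brightest probe, which fewer genes have, counts of 11 of the 12 lists fell by more than 1.5 times in at least 1 direction.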
